A study of Mus musculus with 4 samples.

Results

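Hemgn encodes hemogen, a nuclear protein made in blood-forming cells. Its locus on mouse chromosome 4 was examined in fetal livers labelled WT or hemogen KO. Every peak of open chromatin with its summit in Hemgn or within 50 kb of either end of it was taken, 51 of 160483 peaks in 4 lists, and these merged into 15 of 55290 regions. The assay was ATAC-seq, in which a transposase inserts into accessible DNA, on fetal liver cells of embryonic day 14.5. There were 2 libraries of genotype WT and 2 of genotype hemogen KO (called Hemgn KO here), all from whole fetal livers. The labels give neither the kind of KO allele, the strain, the sex nor whether replicates came from separate embryos, so p-values measure only the spread between these libraries, which may be technical. In a bulk liver, fewer cells of a type and less open chromatin per cell cannot be told apart.

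Hemogen is made in blood-forming tissue, the red cell lineage included. Work in human erythroid cells, where it is also called EDAG, placed it beside the transcription factor GATA1 and the acetyltransferase p300, and the series title places it beside BRG1, a motor protein that remodels nucleosomes. A gene of this kind is commonly served by its promoter and by a group of enhancers, which ATAC-seq shows as separate peaks. RefSeq has 3 other genes with an end inside the window. Trmo, a tRNA methyltransferase gene, lies next to Hemgn on its downstream side, and Foxe1, a forkhead factor gene of thyroid development, lies beyond it. Anp32b, which encodes an acidic nuclear histone-binding protein, lies at the upstream edge. Hemgn is read from the minus strand, so upstream of its start means higher coordinates.

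The 250 bases before the starts of Hemgn, Trmo and Anp32b are shown because each start lay under a peak in all 4 libraries while the 3 promoters differ in kind. They come from RefSeq, build GRCm38.p6, read 5′ to 3′ on the gene's strand, at chr4:46404184-46404433 (minus) for Hemgn, chr4:46389424-46389673 (minus, one of 2 listed starts) for Trmo and chr4:46450676-46450925 (plus) for Anp32b. Capitals mark, on either strand, GATA motifs (the letters GATA with A or T before them and A or G after them), the TATA box TATAAA, the CCAAT box and the GC box GGGCGG.
Hemgn: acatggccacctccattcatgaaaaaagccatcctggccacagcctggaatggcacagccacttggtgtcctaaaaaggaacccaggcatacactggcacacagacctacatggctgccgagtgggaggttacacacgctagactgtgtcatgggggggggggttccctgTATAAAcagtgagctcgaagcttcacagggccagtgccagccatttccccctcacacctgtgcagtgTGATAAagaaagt
Trmo: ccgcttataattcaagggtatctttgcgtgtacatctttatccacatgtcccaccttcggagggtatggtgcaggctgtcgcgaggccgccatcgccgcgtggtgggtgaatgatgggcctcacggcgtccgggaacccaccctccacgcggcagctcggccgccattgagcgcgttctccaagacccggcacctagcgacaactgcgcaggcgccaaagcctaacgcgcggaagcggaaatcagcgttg
Anp32b: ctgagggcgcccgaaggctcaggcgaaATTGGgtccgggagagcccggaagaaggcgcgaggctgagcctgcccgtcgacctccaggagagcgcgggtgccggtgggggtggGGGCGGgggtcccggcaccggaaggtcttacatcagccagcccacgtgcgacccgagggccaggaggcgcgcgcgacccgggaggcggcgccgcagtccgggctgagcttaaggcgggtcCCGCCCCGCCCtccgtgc
With the first transcribed base as position 1, the Hemgn promoter held TGATAA from position -13 and TATAAA from position -80, and a further AGATAA began at position 29, past the printed stretch. E-box letters (CANNTG) began at positions -191, -26 and 13. A GATA motif was found in 29.8% and TATAAA in 13.6% of all 32851 promoter windows of 300 bases, and E-box letters in 72.3%. CCAAT and GGGCGG (37.4% and 35.7% of windows), and CACCC (57.5%), had no match in the Hemgn window. The Hemgn window had 4 CpG pairs, against 34 for Trmo, 40 for Anp32b and a median of 7 over all windows. These matches are letters only and show no binding.

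The lists of the WT libraries held 47858 and 34181 peaks and those of the KO libraries 35426 and 43018; throughout, replicate 1 comes before replicate 2. A peak list states no depth, but fold and p of a peak together give the whole number of fragments stacked at its summit, called the summit pileup here, and the background it was tested against. Both could be solved for 100% of peaks. The most frequent background was 5.67 and 2.29 fragments for WT, and 2.49 and 3.80 fragments for KO. Taken as relative depth, this makes WT replicate 1 and KO replicate 2 the deeper library of their genotype. To compare libraries, each pileup, with 1 added, was divided by its library's median, with 1 added, over the 27473 regions present in all 4 libraries, which was 135 and 51 fragments in WT and 54 and 84 in KO; this multiple is called the scaled pileup. The tissue label was set against marker genes. For scale, 12358 genes other than Hemgn had a region present in all 4 libraries at a gene end, where 21887 protein-coding genes are listed. A peak within 1 kb of a gene end was present in all 4 libraries at 6 of 8 erythroid genes, 1 of 5 hepatocyte genes (Hnf4a), 0 of 3 macrophage genes and 1 of 5 genes of tissues not sampled (Ckm). Of the other erythroid genes, Epor had such a peak in 3 libraries, and Gata1 had 4 libraries with a peak at its listed start instead. Peaks in 3 libraries were also found at the hepatocyte genes Alb and Apob and the macrophage gene Csf1r, and in 2 at the macrophage gene Adgre1, so markers of these cells were open in part of the libraries; Afp, Ttr and Cd68 had none.

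The surroundings of Hemgn were densely open in both genotypes. The WT lists had 13 and 12 peaks in the window, against 12 and 14 for KO. Of its length, peaks covered 11.99 and 10.8 kb (WT) and 10.9 and 12.6 kb (KO). Mean peak number was 12.5 ± 0.707 (WT) against 13.0 ± 1.41 (KO; SD over 2 libraries; exact two-sided permutation p = 1). Mean covered length was 11.4 ± 0.834 against 11.7 ± 1.21 kb (exact two-sided permutation p = 0.667). With 2 libraries against 2 there are 6 relabelings and p cannot fall under 0.333. Per 100 kb of such windows, Hemgn had between 10.9 and 12.7 peaks, while the median of 21887 protein-coding genes lay between 2.56 and 3.45. Between 92.8% and 96.9% of these genes had fewer, depending on the library.

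Of the 15 regions, 11 were present in all 4 libraries, or 73.3%, beside 49.7% of all regions. None was present in both libraries of one genotype and absent from the other, where 2.2% of all regions were WT-only and 1.41% KO-only by that definition; asking it of 3 libraries gave 1 such region when KO replicate 1 was left out and 2 when KO replicate 2 was. The remaining 4 regions were absent from at least 1 library. A region 47.3 kb downstream of the Hemgn start (46356472 to 46357176) had peaks of 39 and 24 fragments in WT. In KO it had 1 peak, of 19 fragments, in replicate 2. A region 18.5 kb upstream (46422359 to 46423157) was seen only in the deeper library of either genotype, with 26 fragments (WT) and 17 fragments (KO). Peaks in a single library, a class of 2 of the 15 members and 25% of all regions, stood inside Trmo (46382189 to 46382473, 18 fragments in KO replicate 2) and 7.46 kb upstream of Hemgn (46411316 to 46411820, 55 fragments in KO replicate 1, a scaled pileup of 1.02). The latter lay next to a shared region, 46410210 to 46411288, whose peak in KO replicate 1 ended at 46410983. Whether they are 1 open stretch was not tested. At the edges of the window the farthest member summits were 49.6 kb (in Foxe1) and 46.9 kb (at Anp32b) from the gene, with fold percentiles of 26.9 and 51.4, and the nearest summits left out were at 88.9 and 59.0 kb, with 99.8 and 8.48.

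**Figure D1:**
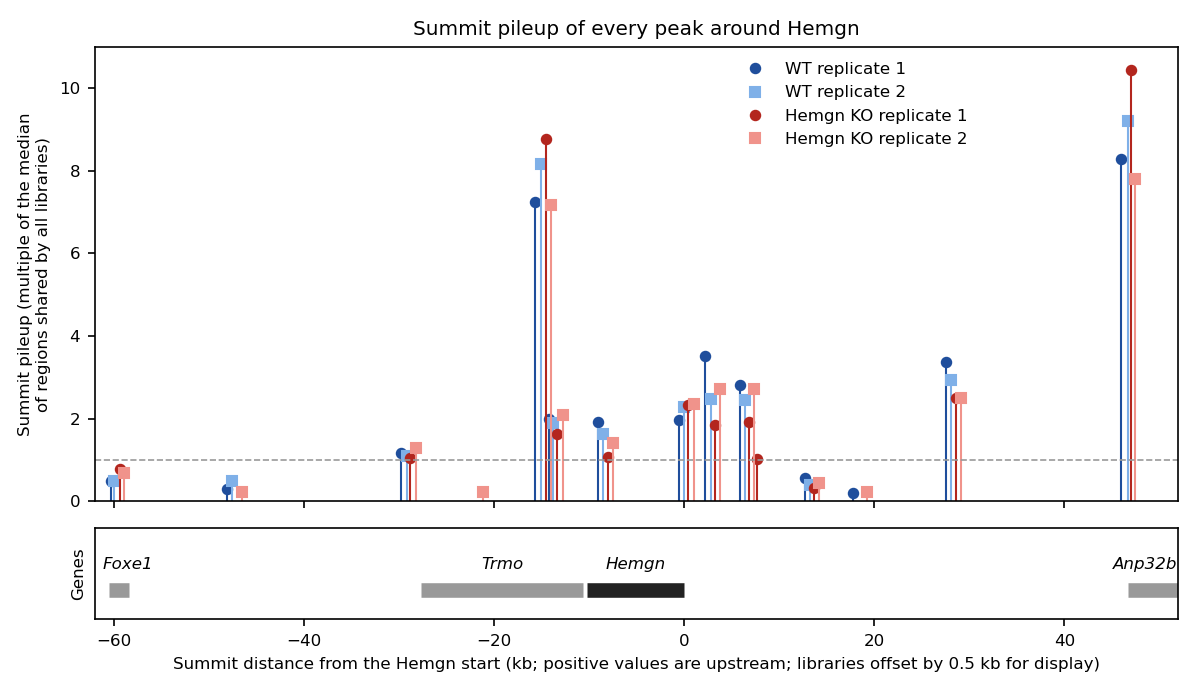
Summit pileup of every peak in the Hemgn window (y axis, as a multiple of the median of regions shared by all libraries, which is the dashed line at 1) against its distance from the Hemgn start in kb (x axis), 1 stem per peak and library, with the gene records as bars below. The Trmo and Anp32b starts rise to between 7.16 and 10.5 in every library, and the shared regions from the Hemgn body to 6.63 kb upstream lie between 1.07 and 3.51.

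At the start of Hemgn itself a peak stood in every library, KO included (46403640 to 46405019 over the 4 lists). Its summit pileup was 265 and 118 fragments for WT against 127 and 199 for KO. Scaled, this was 1.956 and 2.29 against 2.33 and 2.35, so both KO values lay just above both WT values. The difference was small beside the error of the fit: KO over WT was 0.15 on the log2 scale (SE 0.23, 95% interval -0.31 to 0.60; limma, Benjamini-Hochberg adjusted p = 0.936), and it ran from 0.04 to 0.22 when single libraries were left out. Its summit lay 249, 249 and 251 bases upstream of the start in 3 libraries and 159 bases upstream in KO replicate 1, at the 5′ part of the printed promoter or 1 base beyond it. The peak was 1207 and 1101 bp wide in WT and 1319 and 1380 bp wide in KO, 195.5 bp wider on average (exact two-sided permutation p = 0.333, the smallest possible), where the median widths of the whole lists were 546 and 624 bp in WT and 639 and 599 bp in KO.

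Inside the gene there was 1 region (46395660 to 46396905), 8.25 kb downstream of the start and near the 3′ end; the gene table used has no exons, so exon or intron is not given. This region had 259 and 84 fragments in WT and 58 and 119 in KO. Scaled pileup was 1.91 and 1.63 in WT and 1.07 and 1.41 in KO, so both KO libraries lay below both WT libraries. The means were 1.77 ± 0.196 and 1.24 ± 0.240 (SD, n = 2 each), and the log2 ratio was -0.52 (SE 0.23, 95% interval -0.98 to -0.07). It did not pass after adjustment over all shared regions (limma, Benjamini-Hochberg adjusted p = 0.256; unadjusted p = 0.0238), and the ratio ran from -0.73 to -0.32 when single libraries were left out. While lower, the KO peaks were wider, with 1164 and 1123 bp against 979 and 879 bp in WT (exact two-sided permutation p = 0.333). Within-list percentiles of fold overlapped, with 65.6 and 49.2 for WT against 36.2 and 53.0 for KO. Together the peaks covered 1464 and 1349 bp of Hemgn (14.4% and 13.2% of the gene) in WT and 1685 and 1667 bp (16.5% and 16.4%) in KO. The gene's own sequence was therefore under peaks in the KO libraries at both places, so DNA of both places was in them. The kind and position of the allele are not given and were not tested.

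Upstream of the gene, 2 strong neighbours of the promoter stood 3.02 and 6.63 kb from the start, outside any gene record. The nearer one (46406862 to 46407664) had 477 and 128 fragments in WT and 100 and 231 in KO. Its scaled pileup was 3.51 and 2.48 in WT and 1.84 and 2.73 in KO, and the genotypes overlapped. The log2 ratio was -0.40 (SE 0.23; limma adjusted p = 0.467), and it was -0.14 and -0.69 without WT replicate 1 or 2, and -0.11 and -0.69 without KO replicate 1 or 2. The farther one (46410210 to 46411288) had 381 and 127 fragments in WT and 105 and 231 in KO, or scaled 2.81, 2.46, 1.93 and 2.73. These overlapped too, with a log2 ratio of -0.20 (SE 0.23; limma adjusted p = 0.859). In both regions KO replicate 1 was the lowest library and WT replicate 1 the highest.

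Further upstream, a weak region stood at 13.5 kb (46417380 to 46417904), with 75 and 20 fragments in WT and 17 and 36 in KO. The scaled values of 0.559 and 0.404 in WT and 0.327 and 0.435 in KO overlapped (log2 ratio -0.33, SE 0.23; limma adjusted p = 0.598; -0.60 to -0.09 when single libraries were left out). The region at 28.3 kb (46432090 to 46433187) was stronger, with 458 and 152 fragments in WT and 137 and 211 in KO. Here the scaled pileup was 3.38 and 2.94 in WT against 2.51 and 2.49 in KO, with no overlap, and the log2 ratio was -0.33 (SE 0.23; limma adjusted p = 0.596). Its summit fell on the same base in all 4 libraries, which was so at 2.17% of all shared regions; the median spread of summit positions was 92 bp at the 11 shared regions of the window and 87 bp at all of them.

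The promoters of the neighbouring genes were the strongest regions of the window. At the Trmo start (46389082 to 46389971) the pileup was 986 and 424 fragments in WT and 482 and 608 in KO. Scaled, these were 7.26, 8.17, 8.78 and 7.16, which overlapped, with a log2 ratio of 0.04 (SE 0.23; limma adjusted p = 0.998). At the Anp32b start (46450481 to 46452700) it was 1126 and 478 fragments in WT and 574 and 662 in KO. The scaled values of 8.29, 9.21, 10.5 and 7.80 overlapped as well (log2 ratio 0.05, SE 0.23; limma adjusted p = 0.997). A second region of the Trmo record, 13.5 kb downstream of the Hemgn start (46390398 to 46390965), had 271 and 97 fragments in WT and 88 and 176 in KO and a log2 ratio of -0.08 (SE 0.23; limma adjusted p = 0.985). A region 29.0 kb downstream, outside genes (46374626 to 46375499), had 159, 56, 57 and 109 fragments in the same order and a log2 ratio of 0.04 (SE 0.23; limma adjusted p = 0.998).

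Foxe1 had the highest KO over WT ratio of the window, at a low level. Its region (46343645 to 46345441) had 65 and 24 fragments in WT and 42 and 57 in KO. Scaled pileup was 0.485 and 0.481 in WT and 0.782 and 0.682 in KO, so both KO libraries were above both WT libraries. The log2 ratio was 0.60 (SE 0.23, 95% interval 0.14 to 1.05), with an adjusted p of 0.162 by limma (unadjusted p = 0.00987), the lowest of the window in this fit. Which region was lowest depended on the fit (limma adjusted p). With a variance trend the Hemgn body had 0.116 and Foxe1 0.210. With pileups over the library background they had 0.140 and 0.207. Foxe1 stayed lowest with the replicate number as a block (0.332) and with an overlap of 50% for merging (0.125).

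**Figure D2:**
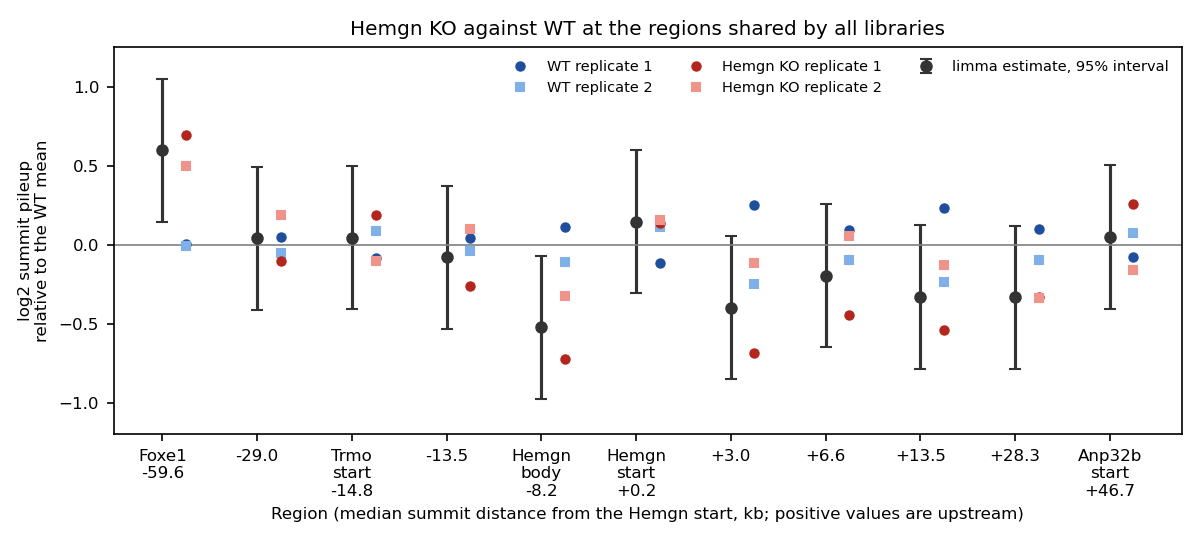
log2 summit pileup relative to the WT mean (y axis) at the 11 regions of the window shared by all libraries, ordered along the chromosome with the distance from the Hemgn start in kb (x axis). Black points with bars are the limma estimate of KO over WT with its 95% interval, and coloured points are the 4 libraries; the Foxe1 interval lies above 0 and the Hemgn body interval below 0 before adjustment, and the other intervals include 0.

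Across the 11 shared regions, 0 passed the adjusted threshold of 0.05 and 2 had an unadjusted p under 0.05 (Foxe1, higher, and the Hemgn body, lower). Over all 27473 shared regions 2.1% passed, 325 higher and 251 lower in KO, and 13.6% had an unadjusted p under 0.05. With pileups divided by the library background in place of the shared median the split was 287 higher and 555 lower. The number that passed was 576, but 103 or 83 when WT replicate 1 or 2 was left out, and 0 when either KO replicate was (limma, where 2142 regions without KO replicate 1 and 5292 without KO replicate 2 had an unadjusted p under 0.05). Both KO libraries lay below both WT libraries at 2 of the 11 regions (18.2%) and above them at 2 (18.2%), where 17.3% and 22.3% of all shared regions did so. Both shares are near the background. The point estimate was lower in KO at 6 and higher at 5 regions, with a median log2 ratio of -0.08, beside 0.05 over all shared regions. The fit gave every region the same error, since its estimate of the spread was fully pooled over regions. A limma p therefore does not reflect the spread of the libraries at its own region, and weak and strong regions were treated alike.

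Depth varied together with these values. At 6 of the 11 regions (54.5%) the deeper library of each genotype had the higher scaled pileup, beside 15.9% of all shared regions; the part of depth in the ratios was not tested. The erythroid markers had negative ratios, as had the Hemgn body and the 4 upstream regions short of Anp32b. The Hemgn start had a log2 ratio of 0.15. Ckm, a gene of a tissue not sampled, had -0.20 at a gene end, with a peak at its listed start in 0 libraries. Whether negative ratios were particular to erythroid genes was not tested. Of the hepatocyte genes, Apob had -0.08 and Hnf4a 0.07. Over all shared regions the median was 0.05, and the share of negative ratios is not given here. Among the 8 erythroid markers, Epor had a shared region at a gene end, but a peak within 1 kb of a gene end in only 3 libraries. The 7 erythroid markers with a shared region, Epor included, had log2 ratios between -0.45 and -0.05, with a median of -0.20. Of these, 0 passed (limma, lowest adjusted p = 0.383). Their part in the values at Hemgn was not tested.

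Fold enrichment alone ranked the Hemgn promoter low, and pileup ranked it high. By fold, the authors' ratio of summit to background, the region at the start stood at percentiles 33.0 and 28.0 of the WT lists and 35.5 and 34.3 of the KO lists. By summit pileup the same peaks stood at percentiles 78.7 and 72.9 in WT and 74.0 and 79.6 in KO. The background at this peak was 11.67 and 10.98 times the library's for WT and 10.64 and 11.95 times for KO. The 6 regions from the Trmo start to 6.63 kb upstream of Hemgn, a stretch of 22.2 kb, all had such raised local backgrounds, between 4.61 and 16.0 times the library's. In all, 8 of the 11 shared regions had a local background over 4 times that of the library in all 4 libraries, beside 35.7% of all shared regions.

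The region 3.02 kb upstream showed the widest gap. Its fold percentiles, 50.6 and 16.3 for WT and 3.25 and 25.3 for KO, had the lowest mean of the shared regions, and its pileup percentiles were 85.4, 74.0, 70.9 and 81.4. The Trmo start had the highest fold percentiles, with 92.9 and 92.2 in WT and 94.4 and 93.5 in KO. The region 13.5 kb upstream gave 64.1 and 34.9 for WT against 13.7 and 34.5 for KO, the most negative KO minus WT difference of the window (-25.4 percentile points, exact two-sided permutation p = 0.333; -40.0 to -10.7 when single libraries were left out). Foxe1 gave 60.8 and 26.9 for WT against 44.5 and 58.4 for KO, which overlap. Percentiles from lists of different lengths do not measure a change, and at 8 of the 11 regions the deeper library of each genotype had the higher one, as at 69.8% of all shared regions.

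**Figure D3:**
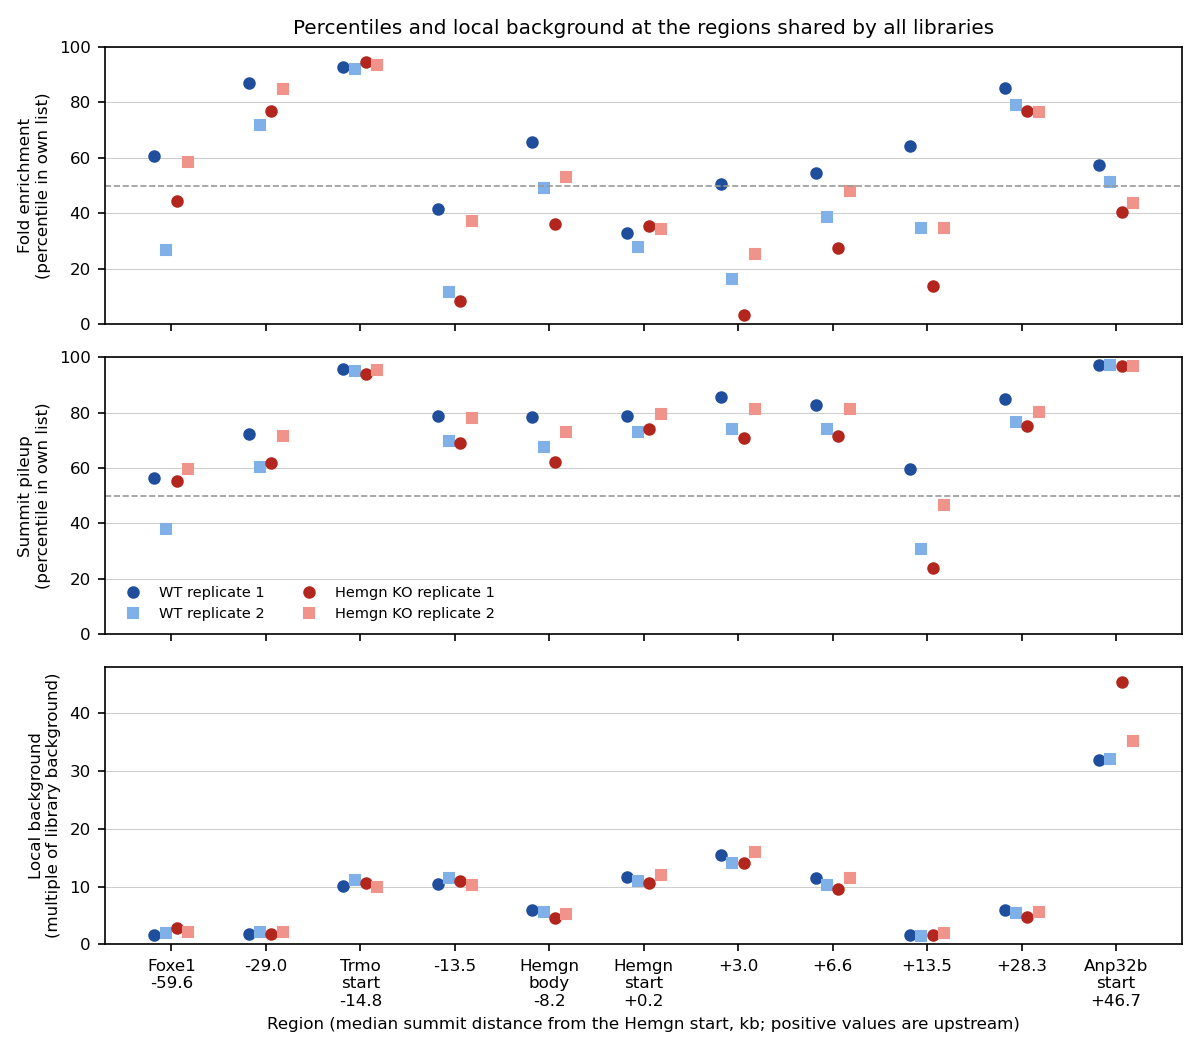
Percentile of fold enrichment (top) and of summit pileup (middle) within each library's own list, and the background at the peak as a multiple of the library background (bottom), at the 11 shared regions by distance from the Hemgn start in kb; points are single libraries and dashed lines mark the 50th percentile. From the Trmo start to 6.63 kb upstream, pileup percentiles lie between 62.1 and 95.5, while fold percentiles reach down to 3.25 where the local background is raised.

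Among 12358 other genes with a shared region at a gene end, the 5 whose fold percentiles over the 4 libraries lay nearest to those of Hemgn, by the sum of absolute differences, were Mamld1 (sum 4.28 percentile points), Nodal (8.96), Fabp3 (9.65), Hes2 (10.4) and Htra3 (10.97). Mamld1, for example, stood at 31.8 and 27.9 in WT and 33.9 and 35.8 in KO. Hes2 and Fabp3 lie on chromosome 4 too.

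A list of 14 genes was chosen around hemogen, and their links to it were not tested here. Of the 14 genes, 13 had a peak within 1 kb of a gene end in all 4 libraries. Gata1 had one at its listed start in all 4. A shared region at a gene end was also found at 12358 genes other than Hemgn, where 21887 protein-coding genes are listed. By that measure 13 of the 14 had a shared region. Such regions were not limited to this list, and whether it had them more often than other genes was not tested. Gata1 and Klf1 were also among the erythroid markers. The members not named below were Tal1, Ldb1, Zfpm1, Gfi1b, Nfe2, Hoxb4, Smarcb1, Arid1a and Smarcc1. After adjustment 0 of the 13 rose and 0 fell in KO, beside 1.18% and 0.914% of all shared regions, and their log2 ratios ran from -0.47 to 0.18 with a median of 0.07 (limma, lowest adjusted p = 0.335). Lmo2, a bridging protein of the erythroid TAL1 complex, gave -0.47 (SE 0.23, limma adjusted p = 0.335), and Klf1, an erythroid zinc finger activator, gave -0.43 (SE 0.23, limma adjusted p = 0.414). Smarca4, the gene of BRG1, gave 0.11 (SE 0.23, limma adjusted p = 0.966), and Ep300, the gene of p300, gave 0.08 (SE 0.23, limma adjusted p = 0.985).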

How the data were processed

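ATAC-seq peaks of 4 fetal liver libraries were used, 2 WT and 2 Hemgn KO. The submitters' processing notes name MACS2 2.2.7.1, Picard 2.21.4, SAMtools 1.9 and Bowtie2 2.3.5. Settings and build: not given in the sources used here. For every library the authors deposited 1 peak list, none pooled. The deposited fold is the authors' ratio of a summit to its background, and the deposited −log10 p and −log10 q belong to each peak in its own library. The deposited score is 10 times the −log10 q without decimals at nearly all peaks. Gene ends and starts came from RefSeq tables of GRCm38.p6. By library, 26.0% to 33.6% of summits were at most 1 kb from a listed start, against 3.76% to 3.83% after a shift of 5 kb, so the tables were used to place peaks; coordinates of regions are those of the lists, counted from 1.

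Peaks on the autosomes, X and Y were merged where they shared at least 1 bp. Summit pileup and background were solved from fold, as (pileup + 1)/(background + 1), and from the Poisson p, with a tolerance of 0.001 or 1e-05 of the −log10 p, whichever was larger. Whether a pileup counts whole fragments or extended reads is not given. Where a region held several peaks of a library, that of highest pileup was used. log2(pileup + 1), centred per library, was fitted with limma 3.58.1 in R 4.3.3 over all shared regions, with Benjamini-Hochberg adjustment; only regions called in all 4 libraries enter, so a loss below the calling threshold is not seen there. Library values were compared by exact two-sided permutation tests. The solving of pileups and the limma fit were tried on simulated data. The changes planted for the fit were larger than any ratio in the window, so changes as small as those were not tried. The members, gene lists and tests were chosen with earlier results of these data known. Regions named in full lay in or within 1 kb of Hemgn, or had the highest or lowest mean fold percentile or its largest change; all regions are accounted for. Same-numbered libraries are not stated to share an embryo or a day. No genome was used here, so no peak sequence beyond listed promoters was read.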

Additional observations from a re-analysis of the deposited data

How the results depend on the processing

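In none of the 14 fits, those that leave out a library included, did a region of the window pass; the lowest adjusted p there was 0.0518, under the crossed pairing (limma). The start of Hemgn kept its direction in all alternatives run, and so did the Hemgn body in summit pileup. Foxe1 kept its direction in summit pileup in all fits that held it. The fit to the upper 50% by mean pileup held neither Foxe1 nor the region 13.5 kb upstream. The sizes at the start and body moved by over 1.5 times without single libraries. Peak number in the window (KO minus WT) was 0 with a window of 100 kb and with lists of equal length by −log10 q, -0.5 with lists of equal length by fold, -3.5 in the upper 50% of each list and -0.5 to 1.5 without single libraries. Covered length differed by -0.282 kb in lists of equal length by fold, by -3.95 kb in the upper 50% and by -0.528 to 1.19 kb without single libraries. In the upper 50% of each list 3 regions were present in all libraries and 2 in one genotype only, against 0 to 2 without single libraries. Called regions over all chromosomes numbered 17 in the upper 50% by mean pileup, 0 by rank of fold (limma; 2337 with an unadjusted p under 0.05) and 0 to 103 without single libraries. With the replicate number as a block 196 regions were called; WT 1 minus WT 2 and KO 1 minus KO 2 correlated at -0.17 over shared regions, and the crossed pairing, chosen after seeing the data, gave 1641. A variance trend, also added then, gave 773. Over the library background, log2 ratios turned to -0.029 at 29.0 kb downstream, -0.026 at Trmo and -0.021 at Anp32b, and by rank of fold to -0.35 (normal scores) at Anp32b. Without single libraries they ran from -0.11 to 0.20, from -0.10 to 0.18 and from -0.16 to 0.25 at these, from -0.27 to 0.11 at 13.5 kb downstream and from -0.46 to 0.062 at 6.63 kb upstream. The Foxe1 fold percentile differed by -9.30 to 24.6 points, and that of the Trmo start by -0.0676 points by −log10 q. The causes were not tested. The shallow libraries, with backgrounds of 2.29 and 2.49 fragments, limit what weak peaks can show.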
